A study of Arabidopsis thaliana with 72 samples.

Results

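The mRNA of 6 genes of the WRKY family of plant transcription factors was followed after treatment of Arabidopsis seedlings with N-hydroxy-pipecolic acid (NHP): WRKY50 (AT5G26170), WRKY51 (AT5G64810) and WRKY59 (AT2G21900), which belong to group IIc of the family, and WRKY18 (AT4G31800), WRKY40 (AT1G80840) and WRKY60 (AT2G25000), which make up group IIa. They were taken by name as 6 of the 27655 genes of the count table, and all 6 had enough reads to be tested. The question was whether both groups rose with NHP, when they did so, and whether the rise was still seen in 2 mutants. The libraries were of poly(A) RNA from whole seedlings of the Col-0 ecotype, given 0.5 mM NHP or MS medium alone (mock) at 10 days after germination and collected after 15 min, 30 min, 3 h or 6 h. The 3 genotypes were wild type (Col-0), sid2-2, which is mutated in the salicylic acid (SA) synthesis gene ICS1, and fmo1-1, which is mutated in FMO1, the gene of the enzyme that makes NHP. Each of the 24 groups of genotype, time and treatment held 3 libraries, each from 1 well of pooled seedlings, which gives 72 libraries. All seedlings, mock ones included, had their medium replaced before treatment. The library of sid2-2 30 min NHP replicate 3 is named 30 min in its title and 180 min in its time label. It was kept at 30 min, and its weight in the sid2-2 results is given beside them.

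NHP is a mobile signal of systemic acquired resistance, the state in which leaves distant from an infection become more resistant, and it acts together with SA. WRKY factors carry a DNA-binding domain with a conserved heptapeptide at its start, usually WRKYGQK, and bind the W-box, a short element with the core TTGAC. Members of group IIa carry a leucine zipper, form dimers with each other, and are known mainly as negative regulators of defense and as part of abscisic acid signaling. WRKY50 and WRKY51 are known for restraining jasmonic acid responses when SA signaling is active, and WRKY50 binds the promoter of the SA marker gene PR1 together with TGA factors.

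The WRKY50, WRKY51 and WRKY59 genes differ from the IIa genes in the heptapeptide itself, which is shown here because it separates both sets by sequence alone. The 21 bases that encode it were read from the TAIR10.1 genome on the strand of each gene, with the codon of the sixth residue in capitals. That codon is for lysine in the 3 IIc genes and for glutamine in the 3 IIa genes. Of the 67 WRKY genes of the annotation, 3 encoded WRKYGKK in this place, namely WRKY50, WRKY51 and WRKY59, and 64 encoded WRKYGQK.
WRKY50 (chr5:9147579-9147599): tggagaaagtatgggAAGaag
WRKY51 (chr5:25908864-25908884): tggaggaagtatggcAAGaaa
WRKY59 (chr2:9335762-9335782): tggaggaaatacggaAAGaag
WRKY18 (chr4:15384316-15384336): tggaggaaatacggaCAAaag
WRKY40 (chr1:30384789-30384809): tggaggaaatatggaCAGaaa
WRKY60 (chr2:10630643-10630663): tggaggaaatacgggCAAaag

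The 300 bases upstream of the annotated gene start are shown for the 3 members with the largest NHP responses, WRKY51, WRKY59 and WRKY40, in the direction of transcription and from the same genome. Capitals mark each match to TTGAC, the W-box core, and to TGACG, the core bound by TGA factors, on either strand. WRKY51 held 3 matches to TGACG, a pair of them overlapping on opposite strands in TGACGTCA, and 1 match to TTGAC. WRKY40 held 2 matches to TTGAC and 1 to TGACG, and WRKY59 held neither. Among the other members, WRKY50 held 1 match to TTGAC, and WRKY18 and WRKY60 held none of either. Over the same window in 27444 genes, 50.4% held TTGAC, 21.3% held TGACG and 0.758% held 3 or more matches to TGACG. A match is a description of these letters and not evidence of binding.
WRKY51 (chr5:25907947-25908246, plus strand): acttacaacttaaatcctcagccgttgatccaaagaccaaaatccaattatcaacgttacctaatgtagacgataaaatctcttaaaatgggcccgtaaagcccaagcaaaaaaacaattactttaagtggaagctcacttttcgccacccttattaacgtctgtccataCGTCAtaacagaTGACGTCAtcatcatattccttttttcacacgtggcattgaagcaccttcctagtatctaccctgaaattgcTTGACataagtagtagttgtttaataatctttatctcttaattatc
WRKY59 (chr2:9336279-9336578, minus strand): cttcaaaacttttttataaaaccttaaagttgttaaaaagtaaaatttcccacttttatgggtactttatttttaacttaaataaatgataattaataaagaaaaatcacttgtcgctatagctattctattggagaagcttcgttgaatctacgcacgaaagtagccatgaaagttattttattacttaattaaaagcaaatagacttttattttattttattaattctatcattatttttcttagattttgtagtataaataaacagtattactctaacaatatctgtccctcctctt
WRKY40 (chr1:30383261-30383560, plus strand): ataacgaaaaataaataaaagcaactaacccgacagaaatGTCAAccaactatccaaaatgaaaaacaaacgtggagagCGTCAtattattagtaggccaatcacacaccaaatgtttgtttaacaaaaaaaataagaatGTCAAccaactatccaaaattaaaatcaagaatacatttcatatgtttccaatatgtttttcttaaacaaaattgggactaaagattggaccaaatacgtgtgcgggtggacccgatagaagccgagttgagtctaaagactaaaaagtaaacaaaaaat

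Reads assigned to genes ranged from 19618319 to 28382977 per library (median 23373939.5). ICS1 had a median of 0.906 CPM (read counts divided by library size in megareads, scaled by the TMM method) in sid2-2 against 10.0 in Col-0 and 9.62 in fmo1-1, and FMO1 had 0.187 in fmo1-1 against 2.49 in Col-0 and 1.90 in sid2-2, which matches the labels. Both shoot and root markers were present, with a median of 10952 CPM for RBCS1A, the small subunit of Rubisco, and ranges of 17.7 to 39.8 CPM for CASP1, an endodermis gene, and of 5.03 to 19.5 CPM for COBL9, a root hair gene. Replicates of 1 group differed by more than sampling noise in every pair (chi-square per degree of freedom 2.61 to 15.0), most in sid2-2 15 min mock between replicates 2 and 3. The study's setup table gives a batch for each Col-0 and sid2-2 library, without saying of which step. By it, mock and NHP libraries were in different batches in Col-0 at 15 min, 30 min and 3 h, and in sid2-2 at every time. Batch and treatment cannot be told apart there. In Col-0 at 6 h some mock and NHP libraries shared a batch, and the batches of fmo1-1 are not known here. In whole seedlings, more cells with an mRNA and more mRNA per cell cannot be told apart either.

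Per length of transcript, the IIa genes were the more abundant group without NHP. In the 36 mock libraries the median was 15.97 RPKM (CPM per kilobase of exon) for WRKY18, 9.37 for WRKY60 and 4.04 for WRKY40. The IIc genes had 0.921 RPKM for WRKY50, 0.670 for WRKY51 and 0.235 for WRKY59. Mock ranges of WRKY50 (0.541 to 1.47 RPKM) and WRKY51 (0.235 to 1.42 RPKM) overlapped for most of their length, and those of WRKY18 (11.5 to 22.2 RPKM) and WRKY60 (5.75 to 14.7 RPKM) overlapped in part. In the 36 NHP libraries the medians of WRKY51 and WRKY59 stood above that of WRKY50. The NHP range of WRKY59 (0.374 to 2.46 RPKM) nevertheless spanned that of WRKY50 (0.478 to 1.65 RPKM). WRKY51 had a median of 5.91 RPKM, near WRKY40 at 7.004, WRKY59 had 1.20 and WRKY50 had 1.08, while WRKY18 and WRKY60 stood at 17.98 and 9.23.

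**Figure D1:**
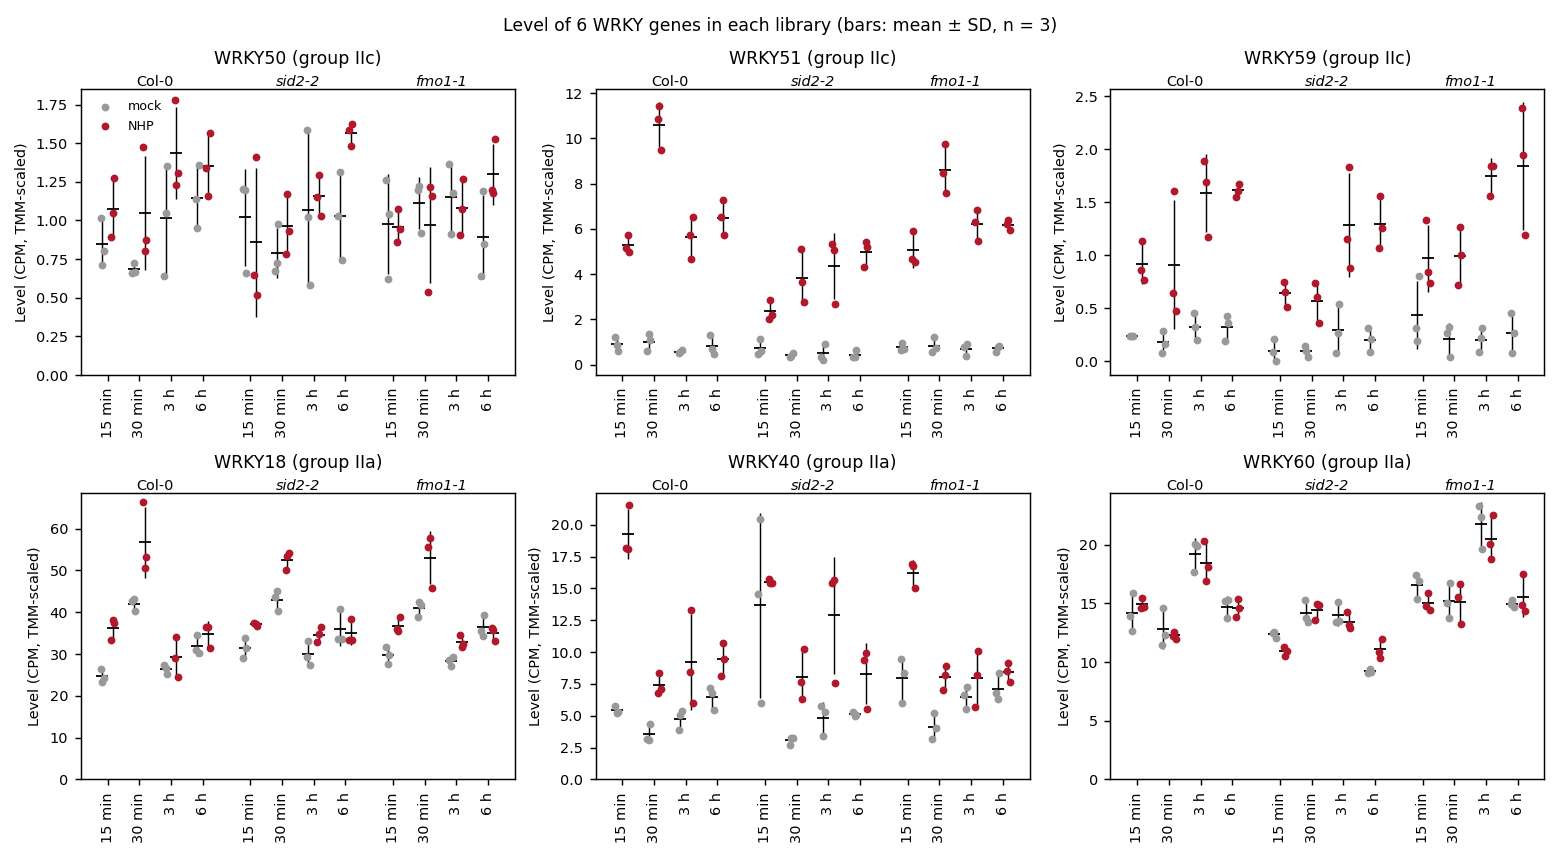
Level of each member in every library, in TMM-scaled CPM on a linear axis of its own for each gene, by genotype and time (grey, mock; red, NHP; bars, mean and SD of 3 libraries). NHP libraries of WRKY51 lie above the mock libraries in all 12 pairs of groups, those of WRKY59 in 11, those of WRKY40 in 9, those of WRKY18 in 7, those of WRKY50 in 2 and those of WRKY60 in 1. The share of all genes that separate in this way was not computed, so these counts are descriptions.

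WRKY51 rose with NHP in every genotype at every time. In Col-0 at 15 min its level was 1.21, 0.874 and 0.604 CPM in the mock libraries and 5.13, 5.73 and 5.00 CPM in the NHP libraries. All 3 NHP libraries lay far above all 3 mock libraries, with a log2(FC) of 2.58 ± 0.27 (SE) or 5.97-fold (adjusted p = 3.84e-10 by edgeR's quasi-likelihood test, as for each adjusted p here). At 30 min the mock libraries had 0.619, 1.35 and 1.08 CPM and the NHP libraries 10.9, 11.4 and 9.50 CPM, the highest group of this gene. The log2(FC) was 3.39 ± 0.26 (adjusted p = 9.27e-16), or 10.51-fold. Mock levels of 0.502, 0.566 and 0.637 CPM stood against NHP levels of 5.72, 4.67 and 6.53 CPM at 3 h, and 1.29, 0.690 and 0.479 CPM against 6.51, 7.27 and 5.72 CPM at 6 h. The responses there were 3.29 ± 0.29 and 2.96 ± 0.27 on the log2 scale (adjusted p = 4.74e-13 and 3.42e-13), so the mRNA had risen by 15 min and was still raised at 6 h.

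In the mutants WRKY51 also rose at all 4 times, with log2(FC) values of 1.70, 3.18, 3.19 and 3.46 in sid2-2 and of 2.72, 3.38, 3.17 and 3.09 in fmo1-1. The lowest response was that of sid2-2 at 15 min, where mock libraries had 0.474, 1.14 and 0.618 CPM and NHP libraries 2.00, 2.87 and 2.20 CPM (log2(FC) 1.70 ± 0.33, adjusted p = 0.000648). The groups did not overlap there either, and the largest adjusted p of the 12 comparisons was this one. Without the library with the conflicting time label, the sid2-2 response at 30 min was 3.37 (adjusted p = 3.91e-10). Over the 12 comparisons the response spanned 3.24-fold to 11.03-fold with a median log2(FC) of 3.17.

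WRKY59, whose function is less well described, rose as well, from a lower level. In Col-0 at 15 min its mock libraries had 0.242, 0.238 and 0.242 CPM, from 5, 6 and 6 reads, and its NHP libraries 0.861, 1.14 and 0.772 CPM. At 6 h they had 0.190, 0.432 and 0.359 CPM against 1.55, 1.61 and 1.68 CPM. All NHP libraries were above all mock libraries at both times. The log2(FC) was 1.91 ± 0.50 after 15 min (adjusted p = 0.0170) and 2.32 ± 0.55 after 30 min (0.00622). It was 2.29 ± 0.43 after 3 h (0.000184) and 2.30 ± 0.43 after 6 h (8.72e-05). The first 2 of these calls were lost in some fits with 1 library left out. That at 15 min was lost without any of 4 of its 6 libraries (mock replicates 1, 2 or 3 or NHP replicate 2, highest adjusted p = 0.0884). With each of the 6 left out in turn, its log2(FC) stayed between 1.75 and 2.02. Those fits called 298 to 519 of all genes in either direction, rather than 571. The call at 30 min was lost without mock replicate 1 or NHP replicate 2 (log2(FC) 1.97 and 1.65, highest adjusted p = 0.209). A batch term could be fitted at 6 h only, over Col-0 and sid2-2 together, since Col-0 mock and NHP libraries shared a batch there. In that fit the Col-0 value was 2.09 and was not called (adjusted p = 0.0884).

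In sid2-2, WRKY59 had log2(FC) values of 2.75 ± 0.67, 2.55 ± 0.69, 2.17 ± 0.47 and 2.65 ± 0.49 from 15 min to 6 h. Each was called by edgeR (adjusted p = 0.00894, 0.0307, 0.000894 and 7.02e-05). By DESeq2 on the 6 libraries of each time, those at 15 min and 30 min were not called (adjusted p = 0.105 and 0.118). The mock libraries held few reads, with 2, 4 and 0 at 15 min and 3, 2 and 1 at 30 min, against 15, 14 and 12 and 16, 13 and 7 with NHP. The call at 30 min was lost without any of the 5 libraries other than the one with the conflicting label (highest adjusted p = 0.150), and was kept without that one (2.78, adjusted p = 0.0277). In fmo1-1 the response was not called at 15 min (1.14 ± 0.45, adjusted p = 0.165), where mock replicate 3 held 17 reads against 7 and 4 in the other mock libraries and 31, 22 and 18 in the NHP libraries. Without that mock library it was 1.90 (adjusted p = 0.0472). At 30 min, 3 h and 6 h it was 2.18 ± 0.51, 3.07 ± 0.47 and 2.75 ± 0.43 (adjusted p = 0.00576, 2.50e-06 and 3.05e-06). The call at 30 min was lost without mock replicate 3 (1.72, adjusted p = 0.0972).

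WRKY50, the third gene with the lysine heptapeptide, was not called in any of the 12 comparisons. Its Col-0 libraries at 15 min had 1.02, 0.715 and 0.805 CPM in mock and 0.896, 1.05 and 1.27 CPM in NHP libraries, which overlapped. In 10 of the 12 comparisons the groups overlapped, and NHP libraries were above the mock ones in 2, Col-0 at 30 min and sid2-2 at 6 h. How often other genes separate in this way was not counted. The log2(FC) ran from -0.24 to 0.62 with a median of 0.26, and the smallest adjusted p was 0.180. Of the 12 comparisons 1 had an unadjusted p under 0.05, sid2-2 at 6 h, as did 5031 of all 21042 genes there. With 12 to 47 reads per library, the 95% intervals reached from -0.89 to 1.29, so a small change could not be told from none, while the lowest response of WRKY51, 1.70, lay outside every interval.

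WRKY40 rose at 15 min in Col-0 and in fmo1-1. In Col-0 its level was 5.76, 5.20 and 5.31 CPM in mock libraries and 18.2, 18.1 and 21.5 CPM in NHP libraries at that time. The groups stood well apart, with a log2(FC) of 1.83 ± 0.27 (adjusted p = 3.22e-06), or 3.55-fold. The response was 1.05 ± 0.31 at 30 min (adjusted p = 0.0672), 0.95 ± 0.29 at 3 h (0.0490) and 0.54 ± 0.27 at 6 h (0.259). NHP libraries were above mock ones at each of these times, though only the 3 h value was called, by a narrow margin. The 30 min value was called by DESeq2 (1.07, adjusted p = 0.0124), and the 6 h value by DESeq2 when fitted on its 6 libraries alone (0.55, adjusted p = 0.0134). At 3 h the NHP libraries had 8.41, 13.3 and 5.96 CPM, and without replicate 2 the log2(FC) fell to 0.59 (adjusted p = 0.424). The call was also lost without NHP replicate 1 or any 1 of the 3 mock libraries.

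In fmo1-1, WRKY40 had 9.42, 6.04 and 8.33 CPM in mock and 16.9, 16.8 and 15.1 CPM in NHP libraries at 15 min, which did not overlap. The log2(FC) was 1.03 ± 0.26 (adjusted p = 0.0111), and 0.86 without mock replicate 2 (adjusted p = 0.112). Later values of 0.95, 0.31 and 0.24 were not called, although DESeq2 called that at 30 min (0.96, adjusted p = 0.0302). In sid2-2 the order of times differed, with 0.20 ± 0.25 at 15 min (adjusted p = 0.725), 1.38 ± 0.32 at 30 min (0.00951), 1.42 ± 0.28 at 3 h (0.000453) and 0.70 ± 0.29 at 6 h (0.109). Its call at 30 min was lost without mock replicate 1 (1.298, adjusted p = 0.0662) and without the library with the conflicting time label (1.18, adjusted p = 0.103). Without NHP replicate 3, the value at 6 h was 0.93 and called (adjusted p = 0.0466), as it was by DESeq2 on its 6 libraries (0.72, adjusted p = 0.00738).

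The mock libraries of sid2-2 at 15 min were uneven. They had 14.6, 20.5 and 5.97 CPM of WRKY40, whereas the NHP libraries had 15.7, 15.4 and 15.4 CPM. The third mock library was near the 5.20 to 5.76 CPM of Col-0, the second was above all NHP libraries, and the first was slightly below them. Genes known to respond to touch and handling within minutes (TCH2, TCH3, TCH4, STZ and ZAT12) were high in the same libraries, with a summed level of 449, 725 and 277 CPM in the 3 mock libraries in that order, against 413, 372 and 415 CPM with NHP. In Col-0 at 15 min their summed level was 205 to 216 CPM in mock and 230 to 295 CPM in NHP libraries. With mock replicates 1 and 2 left out together, a setting chosen after seeing the data that assumes the lone mock library to vary like the other groups, WRKY40 was called at 15 min in sid2-2 (log2(FC) 1.38, adjusted p = 0.0366) and in 9 of the 12 comparisons rather than 5.

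The same parallel was seen among libraries of 1 group across the series. The deviation of WRKY40 from its group mean had a Pearson correlation of 0.80 with the mean deviation of the 5 touch genes over the 72 libraries, which share their RNA and depth. For the other members it was 0.35 (WRKY18), 0.27 (WRKY50), 0.20 (WRKY51), 0.15 (WRKY59) and 0.12 (WRKY60). These correlations include the uneven sid2-2 15 min mock libraries described above and so partly restate them, and they were not computed without that group. Between groups the order could be the reverse. In the Col-0 mock libraries the touch genes had 303 to 335 CPM at 30 min, more than the 205 to 216 CPM at 15 min, while WRKY40 had 3.13 to 4.38 CPM at 30 min, less than its 5.20 to 5.76 CPM at 15 min. At 3 h the touch genes had 228, 299 and 214 CPM in the Col-0 NHP libraries, the second of which was also the highest in WRKY40. In sid2-2 they had 427, 377 and 272 CPM, where WRKY40 had 15.5, 15.6 and 7.58 CPM. The part of handling in the WRKY40 values was not tested. WRKY40 overlaps AT1G80850 on the opposite strand by 51 bp, and how the counting treated strand is not given in the sources used here. AT1G80850 had 4.35 to 7.42 CPM over all libraries and a log2(FC) of 0.011 in Col-0 at 15 min (adjusted p = 0.989).

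**Figure D2:**
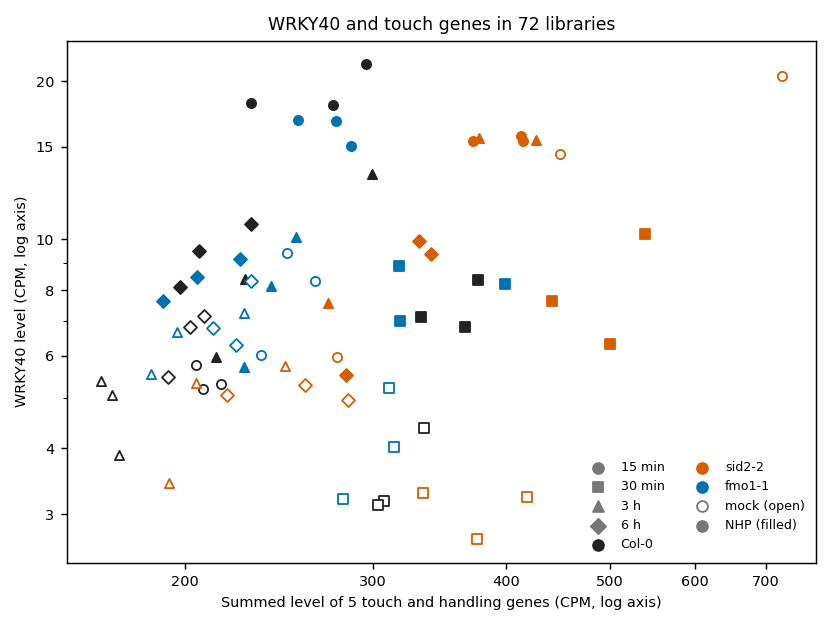
WRKY40 level against the summed level of TCH2, TCH3, TCH4, STZ and ZAT12 in each of the 72 libraries, both in CPM on log axes (shape, time; colour, genotype; open, mock; filled, NHP). The open orange circle at the upper right is sid2-2 15 min mock replicate 2, with 20.5 CPM of WRKY40 and 725 CPM of touch genes, and the open orange circle near 6 CPM is mock replicate 3 of that group.

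WRKY18, the most abundant member, rose little and early. In Col-0 at 15 min it had 26.4, 23.3 and 24.3 CPM in mock and 33.3, 38.1 and 37.5 CPM in NHP libraries, and at 30 min 42.7, 43.2 and 40.3 CPM against 66.3, 50.5 and 53.3 CPM. The groups did not overlap at either time, and the log2(FC) was 0.56 ± 0.091 (adjusted p = 1.98e-05) and 0.43 ± 0.086 (adjusted p = 0.000722). At 3 h and 6 h it was 0.15 and 0.13 (adjusted p = 0.502 and 0.465), with overlapping libraries. Without NHP replicate 1, the Col-0 response at 30 min was 0.30 and not called (adjusted p = 0.0653).

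In fmo1-1, WRKY18 was called at 15 min (0.31 ± 0.091, adjusted p = 0.0367) and at 30 min (0.37 ± 0.087, adjusted p = 0.00576). The former was lost without any of 5 of its 6 libraries (highest adjusted p = 0.219) and the latter without mock replicate 1 or NHP replicates 1 or 2 (highest adjusted p = 0.0589). In sid2-2 the values of 0.24 at 15 min and 0.29 at 30 min were not called (adjusted p = 0.105 and 0.0708), although all NHP libraries lay above the mock ones. Without the library with the conflicting time label the latter was 0.27 (adjusted p = 0.235), and DESeq2 on the 6 libraries of that time called it (0.29, adjusted p = 0.0171). The later values ran from -0.05 to 0.21 in both mutants, none called.

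WRKY60 was not called in any of the 12 comparisons, with log2(FC) values of -0.18 to 0.26, a median of -0.03 and 95% intervals from -0.37 to 0.45. Its Col-0 libraries at 15 min had 13.9, 12.6 and 15.9 CPM in mock and 14.6, 15.5 and 14.7 CPM in NHP libraries. With 203 to 623 reads per library, a change as large as that of WRKY40 in Col-0 at 15 min lay outside every interval. The comparison in sid2-2 at 6 h had the only unadjusted p under 0.05 (log2(FC) 0.26, adjusted p = 0.0590), beside 5031 of all 21042 genes. This comparison was called when the 48 libraries of Col-0 and sid2-2 were fitted alone (0.28, adjusted p = 0.0332).

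Taken by group, 23 of the 36 comparisons of a IIc gene were called higher with NHP and 9 of the 36 of a IIa gene, and every call was in that direction. By gene these were 12 of 12 for WRKY51, 11 of 12 for WRKY59 and 0 of 12 for WRKY50 in group IIc, and 5 of 12 for WRKY40, 4 of 12 for WRKY18 and 0 of 12 for WRKY60 in group IIa. Over all 21042 genes tested, the share called higher with NHP in Col-0 was 0.917%, 0.779%, 1.69% and 3.03% from 15 min to 6 h. In sid2-2 it was 2.45%, 0.699%, 5.79% and 4.94%, and in fmo1-1 1.29%, 0.946%, 2.16% and 2.64%, in the same order. These shares moved with single libraries and with the fit. In sid2-2 at 15 min, 1027 genes were called in either direction, but 287 without mock replicate 2, 1815 without mock replicate 3 and 136 without mock replicates 1 and 2. With batch as a term, the number at 6 h went from 1435 to 324 in Col-0 and from 2309 to 293 in sid2-2. Mock and NHP libraries of sid2-2 shared no batch at 6 h, so the batch shift in that fit came from Col-0 libraries. Each group thus held 1 gene without a call. In Col-0 at 15 min 2 of 3 genes of each group were called, and at 6 h 2 of 3 in group IIc and 0 of 3 in group IIa. Over the 3 genotypes, group IIc had 5 calls at 15 min and 6 at each later time, and group IIa had 4, 3, 2 and 0 from 15 min to 6 h. The 0 at 6 h depended on the fit, since WRKY40 in Col-0 and sid2-2 and WRKY60 in sid2-2 were called at that time under the alternatives given above.

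**Figure D3:**
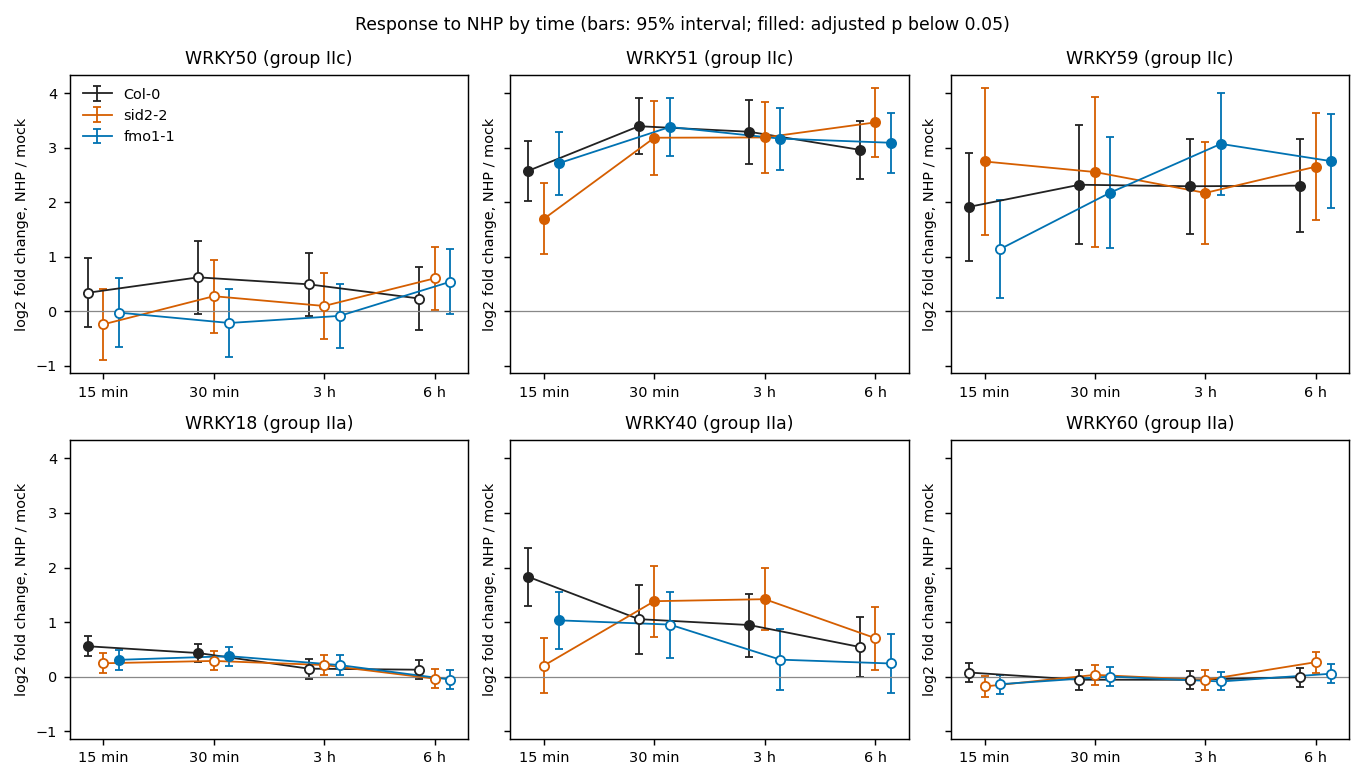
Log2(FC) of NHP against mock by time for each member (colour, genotype; bars, 95% interval; filled, adjusted p below 0.05). WRKY51 stays between 1.70 and 3.46 and WRKY59 between 1.14 and 3.07, while WRKY40 and WRKY18 are highest in Col-0 at 15 min (1.83 and 0.56) and WRKY50 and WRKY60 lie around 0.

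The timing was tested as the mean response at 3 h and 6 h minus the mean at 15 and 30 min. In Col-0 the mean response of WRKY18 was 0.49 early and 0.14 late, a difference of -0.36 ± 0.090 (95% interval -0.54 to -0.18, adjusted p = 0.0223), the only one of the 18 differences that was called. Over all genes 1.25% were called for this difference in Col-0, 19.1% in sid2-2 and 3.91% in fmo1-1. The call was lost without any of 5 libraries (Col-0 30 min mock replicate 3, 30 min NHP replicate 1, 3 h NHP replicate 3, 6 h mock replicate 2 or 6 h NHP replicate 3), with a highest adjusted p of 0.0777. In sid2-2 and fmo1-1 the WRKY18 difference was -0.18 and -0.26 (adjusted p = 0.164 and 0.0840). WRKY40 had -0.70 in Col-0 and -0.72 in fmo1-1 but 0.27 in sid2-2 (adjusted p = 0.361, 0.158 and 0.577).

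For the IIc genes that rose, late and early responses were close in Col-0. The mean of WRKY51 was 2.99 early and 3.13 late there, a difference of 0.14 with a 95% interval of -0.46 to 0.74, and that of WRKY59 was 2.12 and 2.30, with an interval of -0.94 to 1.298. In sid2-2, WRKY51 had 2.44 early and 3.33 late, a difference of 0.89 ± 0.38 that was not called by edgeR (adjusted p = 0.0911) but was by DESeq2 (adjusted p = 0.0377). With edgeR it was called without sid2-2 30 min NHP replicate 1, 3 h mock replicate 3 or 3 h NHP replicate 3 (1.02, 1.27 and 1.01). In fmo1-1, WRKY59 had 1.66 early and 2.91 late (1.25 ± 0.51, adjusted p = 0.180). The differences of WRKY50 and WRKY60 ran from -0.12 to 0.35 and from -0.04 to 0.18, none called. Without the library with the conflicting time label, the 6 differences in sid2-2 ran from -0.35 to 0.79, none called.

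**Figure D4:**
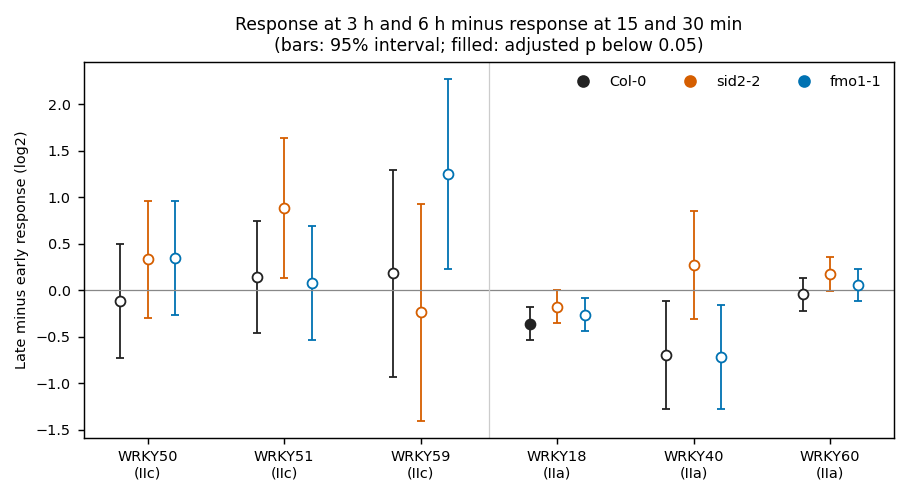
Difference of the mean log2(FC) at 3 h and 6 h from that at 15 and 30 min for each member and genotype (bars, 95% interval; filled, adjusted p below 0.05). Of the 18 points the filled one is WRKY18 in Col-0 at -0.36, and WRKY51 in Col-0 and fmo1-1 lies at 0.14 and 0.08.

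Whether the response depended on genotype was tested as the response of each mutant minus that of Col-0 at each time, which shares the Col-0 libraries between mutants. None of the 48 differences was called by edgeR, and DESeq2 on the same libraries called 1. By edgeR 4 had an unadjusted p under 0.05, all of IIa genes. Beside these, 1069 to 3454 of all 21042 genes had one in each contrast. Over all genes the share called from 15 min to 6 h was 0.0%, 0.204%, 2.17% and 1.06% for sid2-2, and 0.181%, 0.0%, 0.00475% and 0.0% for fmo1-1. Those of sid2-2 moved with single libraries, to 1.64% at 15 min without sid2-2 mock replicate 3, to between 0.266% (without Col-0 mock replicate 1) and 3.38% (without sid2-2 mock replicate 3) at 3 h, and to between 0.347% and 2.25% (without sid2-2 NHP replicates 2 and 1) at 6 h. The smallest p was that of WRKY40 in sid2-2 at 15 min, where the response was lower than in Col-0 by a difference of -1.63 ± 0.37 (95% interval -2.36 to -0.89, adjusted p = 0.114). DESeq2 called this value (-1.64, adjusted p = 0.0293). It moved with the 3 sid2-2 mock libraries described above. It was -1.996 and called without mock replicate 3 (adjusted p = 0.000666), the fit with 1.64% of all genes called, -1.23 without mock replicate 2 (0.638), and -0.45 without replicates 1 and 2 (0.969). In fmo1-1 at 15 min the WRKY40 difference was -0.80 (adjusted p = 0.504).

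For the IIc genes and WRKY40 the differences between genotypes were less well bounded than for WRKY18 and WRKY60. The 95% intervals of WRKY40 reached from -2.36 to 1.29. Differences of WRKY51 ran from -0.88 to 0.50, with the lowest in sid2-2 at 15 min (-0.88 ± 0.46, 95% interval -1.80 to 0.04, adjusted p = 0.542). Those of WRKY59 ran from -0.78 to 0.83, with intervals from -2.17 to 2.63, and those of WRKY50 from -0.84 to 0.37. WRKY18 and WRKY60 were the most closely bounded, with differences of -0.31 to 0.07 and -0.26 to 0.28. Their 95% intervals reached from -0.57 to 0.33 and from -0.51 to 0.53. Without the library with the conflicting time label, the 6 differences of sid2-2 at 30 min ran from -0.33 to 0.46, none called.

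Without NHP, 3 of the 6 members differed between sid2-2 and Col-0 over the 4 times. WRKY51 was lower in sid2-2 by a log2 difference of -0.67 ± 0.21 (adjusted p = 0.00587) and WRKY60 by -0.29 ± 0.045 (adjusted p = 7.82e-08), and WRKY18 was higher by 0.18 ± 0.045 (adjusted p = 0.000429). WRKY59 had -0.76 (adjusted p = 0.0674) and was called by DESeq2 (-0.79, adjusted p = 0.0360). In fmo1-1, 1 of 6 differed, WRKY60 with 0.17 ± 0.044 (adjusted p = 0.0156). Over all genes 57.2% were called for sid2-2 and 3.21% for fmo1-1, so a call in sid2-2 was common, and since by the study's methods each plate held 1 genotype, plate and genotype cannot be told apart. Between late and early mock libraries, for which 60.8% of all genes were called, WRKY18 was lower late (-0.14, adjusted p = 0.000612) and WRKY60 higher (0.10, adjusted p = 0.0158), the latter not without Col-0 15 min mock replicate 2 (adjusted p = 0.0514). With mock replicates 1 and 2 of sid2-2 at 15 min left out, WRKY50, WRKY59 and WRKY40 were called as well, as higher late.

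Among the other WRKY genes of the family, 53 of 61 were tested. In Col-0, 7, 4, 6 and 4 were called higher with NHP from 15 min to 6 h. In sid2-2 the numbers were 4, 5, 15 and 9, and in fmo1-1 4, 6, 7 and 6. The shares over all genes are those given above for each genotype and time. The leading ones in Col-0 belong to group III, factors that act in SA signaling and defense. WRKY38 had a log2(FC) of 5.69 at 15 min and 4.60 at 3 h, WRKY54 had 2.74 and 2.82, WRKY70 had 1.58 and 2.38, and WRKY53 had 0.56 and 0.95. WRKY51 stood with WRKY54 in size of response (2.58 and 3.29 at these times). Of the 14 other IIc genes tested, WRKY75 alone was called in Col-0 at 15 min or 3 h (0.68 ± 0.20 at 15 min, adjusted p = 0.0380), and of the 8 genes of group IIb, the group closest to IIa, none was. Of these IIc genes, 2 and 3 were called higher in sid2-2 at 3 h and 6 h, and 1 in fmo1-1 at each time from 30 min on. Of the IIb genes, 1, 2 and 1 were called higher in sid2-2 at 30 min, 3 h and 6 h, and 1 lower at 15 min. Beside these, 0.699%, 5.79% and 4.94% of all genes were called higher in sid2-2 from 30 min to 6 h. The list medians in Col-0 were 0.01 and 0.07 for all other WRKY genes at 15 min and 3 h, 0.04 and 0.20 for IIc and -0.13 and 0.06 for IIb, beside 0.00 and 0.00 over all genes. Called lower in Col-0 at 15 min or 3 h was 1 of the 53, WRKY14 at 3 h, where 2.18% of all genes were called lower. At 6 h 4 were called lower in Col-0, and in sid2-2 5 were at 15 min and 1 at 30 min.

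VQ proteins bind WRKY factors and alter their activity, and 4 of them were listed, among them JAV1, a partner of WRKY51. At 15 min 1 of 4 was called higher in Col-0, MKS1 (0.44, adjusted p = 0.0293), and at 3 h 2 of 4, SIB1 (1.43, adjusted p = 0.00474) and SIB2 (0.46, adjusted p = 0.0152). Their median was 0.35 and 0.31 at these times. Of 5 genes known to be bound or regulated by members, RRTF1, a redox-responsive ethylene response factor gene bound by WRKY40, was called at 15 min in Col-0 (2.104 ± 0.40, adjusted p = 0.000278), with 0.434 ± 0.134 CPM in mock and 1.87 ± 0.42 CPM in NHP libraries (SD, n = 3), and it was also called at 15 min in sid2-2 and fmo1-1. At 3 h its log2(FC) was -1.38 (adjusted p = 0.425). AOS, a gene of jasmonic acid synthesis, and PR1 were called higher in Col-0 at 6 h. PR1 was called lower, in the other direction, in fmo1-1 at 15 min, and EDS1, another of the 5, was called higher in sid2-2 at 3 h. These genes are named here after their values were seen.

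Among the touch genes, STZ, a zinc finger repressor gene, was called in Col-0 at 15 min (0.78 ± 0.19, adjusted p = 0.0111), and TCH3, a calmodulin-like gene, at 3 h (0.67 ± 0.19, adjusted p = 0.0349), 1 of 5 at each time. The touch gene median was 0.45 and 0.47. The root hair marker COBL9 was lower with NHP, by -0.82 at 15 min and -0.69 at 3 h (adjusted p = 1.03e-06 and 4.80e-05), beside 1.8% of all genes lower at 15 min. Its part in the responses of the members was not tested.

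The members did not share 1 profile over the 12 comparisons, which use separate libraries. The Pearson correlation of log2(FC) was 0.65 between WRKY18 and WRKY40, 0.18 between WRKY40 and WRKY60, and -0.33 between WRKY18 and WRKY60. Within group IIc it was 0.08 between WRKY51 and WRKY59, 0.49 between WRKY50 and WRKY51 and 0.10 between WRKY50 and WRKY59. WRKY59 and WRKY40 had -0.57 and WRKY50 and WRKY60 had 0.61. These are descriptions over 12 points, to which the error of each log2(FC) adds, and members measured in 1 library share its depth.

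Among 6430 genes called in at least 1 of the 12 comparisons, the 3 closest to each member by this measure held no WRKY gene. For WRKY40 they were AT1G07135, PBP1, a calcium-binding protein gene, and CMPG2, a U-box gene (r = 0.923, 0.911 and 0.907). For WRKY18 they were AT3G02250, AT1G76640 and AT2G22122 (0.957, 0.875 and 0.866), of which AT1G76640 was called in 5 comparisons with log2(FC) values of 0.02 to 2.69. The profiles closest to WRKY51 were those of CLE12, a signaling peptide gene, ALIS1, a gene of a lipid flippase subunit, and AT2G44370 (0.896, 0.893 and 0.892), whose own responses spanned -0.95 to 0.16, -0.26 to 0.29 and -0.66 to 0.70, so the likeness was one of shape and not of size. WRKY59 was closest to the nitrate transporter gene NRT2.7, the malate transporter gene ALMT1 and AT5G11960 (0.870, 0.855 and 0.842), WRKY50 to AT1G66465, the bZIP factor gene HYH and AT5G04830 (0.764, 0.751 and 0.722), and WRKY60 to AT4G27020, the autophagy gene ATG13 and the ADP/ATP carrier gene AAC3 (0.917, 0.890 and 0.882). Picking the closest of 6430 genes over 12 points can give high correlations by selection alone. The level to expect from that was not computed.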

How the data were processed

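The count values, reads per gene and library as whole numbers without normalization, were used as deposited by the authors. The study's methods name FastQC for quality checks, CLC Genomics Workbench for trimming and TAIR10 for mapping. How reads were counted, over which annotation and with which strand setting, is not given in the sources used here. The table held 27655 genes, of which 27445 IDs matched the symbol table, with 0 count columns unused. The members, gene lists and comparisons were chosen with earlier results of these data known.

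All 72 libraries were fitted together as 24 groups with edgeR 4.0.16 in R 4.3.3 (TMM factors 0.893 to 1.10, filterByExpr with a minimum count of 10 and a minimum total of 15, robust quasi-likelihood, prior count 0.125, 48 residual degrees of freedom, common biological coefficient of variation 0.0631). Each contrast was adjusted by Benjamini-Hochberg over 21042 genes and called at an adjusted p below 0.05. SE is the log2(FC) divided by the root of F. A library is a well, and p-values measure the spread between wells. Levels are CPM on TMM-scaled library sizes, and RPKM divides them by the exon length in TAIR10.1 (RefSeq), from which gene positions and sequences were read.

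All 6 members were described. Beside them, the text names for each member the 3 genes of highest profile correlation, and at most 4 genes per list that were called in Col-0 at 15 min or 3 h, by smallest adjusted p, with ICS1 and FMO1 as the mutated genes. Exceptions are marked in the text. Statements that mock and NHP libraries did or did not overlap are descriptions, since the share of all genes that separate was not computed.

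Alternatives were DESeq2 size factors, no filter, DESeq2 1.42.0 on all or on 6 libraries, and Col-0 and sid2-2 alone. Others were a replicate block, the batch at 6 h, a fold threshold and each library left out. Left-out fits kept the genes and dispersion trend of the full fit and estimated the quasi-likelihood dispersions again. A further alternative was chosen after seeing the data. Tables and figures used Python 3.11.15, pandas 2.3.3 and matplotlib 3.10.9.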

Additional observations from a re-analysis of the deposited data

Results flagged for a closer look

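The NHP response of WRKY18 in Col-0 differed between times, with a mean log2(FC) of 0.49 at 15 and 30 min, of 0.14 at 3 h and 6 h, and a difference of -0.36 (adjusted p = 0.0223 by edgeR). It was the only call among 18 such differences and did not pass an added log2 threshold of 1. The call was lost without any of 5 libraries (highest adjusted p = 0.0777 by edgeR).

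WRKY60 in sid2-2 had NHP libraries on opposite sides of the mock libraries at the first and the last time. At 15 min the NHP libraries had 11.3, 10.48 and 10.9 CPM, all below the mock libraries at 12.4, 12.6 and 12.1 CPM (log2(FC) -0.18). At 6 h they had 10.9, 10.4 and 11.96 CPM, all above the mock libraries at 9.10, 9.42 and 9.12 CPM (0.26). The 15 min response was lower than the 6 h response by -0.45 on the log2 scale, a difference that was not tested, and neither response was called (adjusted p = 0.279 and 0.0590).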

How the results depend on the processing

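No value of a member that was called reversed its direction under any alternative. Of 156 member values, called or not, 156 stayed on their side of the threshold with DESeq2 size factors, 155 with no filter, 155 with the replicate block and 151 with DESeq2, which added 5 calls (WRKY40 at 30 min in Col-0 and fmo1-1 and in the 15 min response of sid2-2 against Col-0, WRKY51 late minus early in sid2-2, and WRKY59 in mock sid2-2). The replicate numbers did not pair the libraries, since deviations of same-numbered libraries correlated at -0.223 to 0.354 over 36 pairs with a median of 0.014. With the replicate block, WRKY40 in Col-0 at 3 h was no longer called (0.94, adjusted p = 0.0523), nor with no filter (0.0603), with 48 libraries (0.0954) or with DESeq2 on 6 libraries (0.178). Under DESeq2 on 6 libraries, WRKY59 also lost its calls in sid2-2 at 15 min and 30 min (adjusted p = 0.105 and 0.118), while WRKY40 gained calls in Col-0 at 30 min (1.01e-05) and 6 h (0.0134), in sid2-2 at 6 h (0.00738) and in fmo1-1 at 30 min (0.000178), and WRKY18 in sid2-2 at 30 min (0.0171), which gave 13 calls in group IIa and 21 in group IIc. The fit of 48 libraries added WRKY60 in sid2-2 at 6 h (0.0332). The cause was not tested.

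Of 36 comparisons per group, group IIa had 4 rather than 9 calls with an added log2 threshold of 1, while group IIc stayed at 23. The same threshold left 0 of 18 late minus early differences, 0 of 12 mock differences between genotypes and 0 of 6 between times, against 1, 4 and 2. DESeq2 called 1 of 48 response differences and 2 of 18 late minus early differences. Leaving out sid2-2 15 min mock replicates 1 and 2, chosen after seeing the data, gave 5 of 6 mock differences between times. With each library left out in turn, the calls ranged from 22 to 24 in group IIc, from 7 to 10 in group IIa, from 0 to 1 for response differences, from 0 to 2 for late minus early, from 4 to 5 for mock genotypes and from 1 to 4 for mock times. Of the 1944 single values, 35 lost and 18 gained a call.

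WRKY59 had 0 to 17 reads per mock library, and intervals of its differences between genotypes reached from -2.17 to 2.63. Those of WRKY50, with 12 to 47 reads per library, reached from -1.75 to 1.18, and those of WRKY51 from -1.80 to 1.44.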
